A study of Homo sapiens with 45 samples.

Results

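The GATA factor genes GATA2, GATA3, GATA4, GATA5 and GATA6 encode zinc-finger transcription factors, and their chromatin contacts were followed after loss of function of Polycomb repressive complex 2 (PRC2). The 5 genes were taken by name, and a pair of DNA fragments was counted for a gene when either fragment lay within 1000 bp of either annotated end of that gene. This gave 43 of the 152688 listed pairs that join fragments of the same chromosome (cis pairs). Counted over whole genes with 1000 bp on each side, the same genes had 423 cis pairs, and both sets are described.

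The cells were HNES1, an established line of human naive pluripotent stem cells, harvested on day 5 after naive culture was ended to let them enter the primed state. The first group received UNC6852 at 2.5 µM, a PROTAC that directs the EED subunit of PRC2 to degradation. The next received UNC1999 at 1 µM, which blocks the catalytic activity of the EZH1 and EZH2 subunits, and the control group received an equal volume of the solvent DMSO. Agents were present from 24 h before day 0 and were renewed daily, and every group had XAV939 in its medium. Each group had 15 libraries from 3 biological replicates in 2 batches, and both batches held all 3 groups. The assay was a capture Hi-C in which fragments holding poised enhancers are pulled down (baits) and the fragments joined to them (other ends) are read out. Its values are CHiCAGO scores, which measure how far the reads of a pair exceed a background model. A score of 5 or more was taken as a call, and every listed pair reached 5 in at least 1 group. Each group had 1 score per pair, pooled over its 15 libraries, so no spread between replicates is known, no test was possible, and differences below are those between single pooled profiles. The read depth behind the scores is unknown, and with no expression values the identity of the cells could not be checked against marker genes. The doses of UNC6852 and UNC1999 differ, so their values stand side by side and are not compared as to strength.

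GATA factors bind short DNA motifs that hold the letters GATA through 2 zinc fingers. GATA2 and GATA3 are best known from blood, GATA2 in blood stem and progenitor cells and GATA3 in T cells, and GATA3 also from trophoblast. GATA4, GATA5 and GATA6 act in the heart and in endoderm, and GATA6 is needed for primitive endoderm. In pluripotent cells such genes are mostly silent and lie in CpG-rich chromatin that carries H3K27me3, the histone mark written by PRC2.

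The members differ in how much of them was captured. Captured fragments, which had a median length of 625 bp over the 27333 listed, lay in or overlapped GATA2 (8), GATA3 (11), GATA4 (28) and GATA6 (2), and no listed one did so at GATA5. At gene ends there were 2 for GATA2, 3 for GATA3, 4 for GATA4 and none for GATA5 or GATA6, which entered only as other ends, whose median length was 5269 bp. The following 4 promoter windows are shown because each lies whole inside a captured fragment or, for GATA6, inside a listed other end. They are the 250 bases before an annotated transcription start in RefSeq (GRCh38.p14), written 5′ to 3′ on the gene's strand, with every CG in capitals.
GATA2: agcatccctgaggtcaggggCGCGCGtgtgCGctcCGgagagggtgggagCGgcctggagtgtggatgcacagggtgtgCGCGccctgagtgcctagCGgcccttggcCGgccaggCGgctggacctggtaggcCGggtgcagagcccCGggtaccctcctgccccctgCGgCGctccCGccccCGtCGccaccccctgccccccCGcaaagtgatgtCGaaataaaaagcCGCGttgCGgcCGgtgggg
GATA3, first window: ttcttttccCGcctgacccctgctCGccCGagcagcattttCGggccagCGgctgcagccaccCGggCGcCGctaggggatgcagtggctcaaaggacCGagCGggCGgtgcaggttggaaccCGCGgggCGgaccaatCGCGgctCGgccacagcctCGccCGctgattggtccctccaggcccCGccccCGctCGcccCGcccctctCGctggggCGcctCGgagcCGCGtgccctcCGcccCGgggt
GATA3, second window: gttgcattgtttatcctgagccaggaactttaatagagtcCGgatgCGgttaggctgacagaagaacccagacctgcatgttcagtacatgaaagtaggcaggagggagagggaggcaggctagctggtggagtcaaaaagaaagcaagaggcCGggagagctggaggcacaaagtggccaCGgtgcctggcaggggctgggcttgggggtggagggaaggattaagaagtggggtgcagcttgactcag
GATA6: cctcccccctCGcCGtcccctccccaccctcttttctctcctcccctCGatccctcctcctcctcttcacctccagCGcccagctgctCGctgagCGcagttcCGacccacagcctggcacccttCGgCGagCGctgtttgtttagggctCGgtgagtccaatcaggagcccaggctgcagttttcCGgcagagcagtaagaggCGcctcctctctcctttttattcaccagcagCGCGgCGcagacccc
The GATA2 window is chr3:128493202-128493451 on the minus strand and lies inside the captured fragment chr3:128492298-128494088. The first GATA3 window is chr10:8053391-8053640 on the plus strand, inside the captured fragment chr10:8053015-8054177. The second is chr10:8060207-8060456 on the same strand, inside the captured fragment chr10:8060087-8061338. The GATA6 window is chr18:22169339-22169588 on the plus strand, in the uncaptured other end chr18:22165281-22170774. GATA4 and GATA5 are named only. The windows hold CG 24 times in GATA2, 30 and 4 times in the first and second window of GATA3, and 16 times in GATA6. The median over 35116 RefSeq windows of the same length is 11, and 23.7% of them hold at least as many as GATA2, 12.4% and 70.7% as many as the GATA3 windows, and 41.0% as many as GATA6. GATC, the DpnII site at which the chromatin is cut, occurs in the GATA6 window and in 35.8% of all windows, and not in the other 3 shown. The other end around the GATA6 window thus holds a cut site and is not a single DpnII fragment. Whether further uncaptured other ends, also called fragments here, join several DpnII fragments was not checked. The letters GATA or TATC, that is GATA read on either strand, occur in the second GATA3 window and in 45.6% of all, and not in the other 3 shown.

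At the gene ends, 14 of the 43 pairs were called after UNC6852, 14 after UNC1999 and 19 with DMSO. Over all cis pairs, 46.1% were called after UNC6852, 42.3% after UNC1999 and 42.4% with DMSO. The 2 treated counts are thus smaller shares of the 43 pairs than the background, and the DMSO count is close to it. No interval was formed for these small counts. Over whole genes, 218, 232 and 194 of the 423 pairs were called in the same order, each a larger share than the background. GATA4 held 299 of these 423 pairs. Without GATA4 the calls were 50, 61 and 35, a smaller share than the background for UNC6852 and DMSO and a larger one for UNC1999. Of the 43 pairs, 39 were called in 1 profile, 4 in 2 and none in all 3, where a count of 0 allows a share of up to 6.98% (counting error only). For the whole set of cis pairs these shares were 77.5%, 14.1% and 8.33%, so 22.5% had calls in 2 or 3. The mean asinh-transformed score of the 43 pairs was 1.55 after UNC6852, 1.43 after UNC1999 and 1.82 with DMSO (SD over pairs 0.99, 0.98 and 0.82), a difference from DMSO of -0.27 and -0.40. Both differences have the other sign when fragments within 5000 bp of the ends (0.14 and 0.10, 129 pairs) or whole genes (0.09 and 0.11) are counted. As 39 of the 43 pairs were called in 1 profile alone, their mean differences largely restate which profile made the call. The pairs spanned 63.1 kb to 129873 kb, with 35 inside 500 kb, 5 from 0.5 to 2 Mb and 3 beyond 2 Mb.

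**Figure D1:**
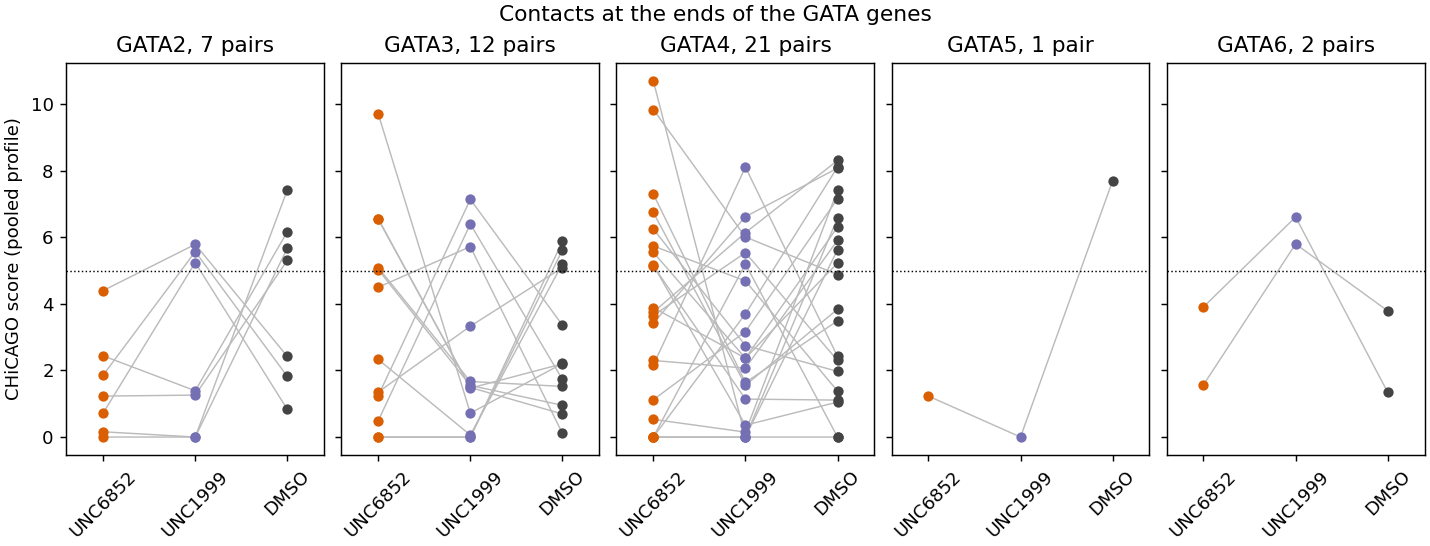
CHiCAGO score (vertical axis) of each cis pair at the ends of the 5 GATA genes in the UNC6852, UNC1999 and DMSO profiles, with a grey line joining the 3 scores of a pair and a dotted line at 5. Of the 43 pairs, 39 lie above the dotted line in 1 profile alone and none does so in all 3.

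GATA2 lies at chr3:128479422-128493201 and had 7 pairs at its ends, of which 0 were called after UNC6852, 3 after UNC1999 and 4 with DMSO. The mean asinh score was 1.01, 1.35 and 1.97 in that order (SD over pairs 0.79, 1.09 and 0.73), so UNC6852 lay 0.96 and UNC1999 0.62 below DMSO. Each of the 7 pairs was called in 1 profile only, so these differences largely restate which profile made the call. Among the 4979 genes with at least 3 cis pairs at their ends, 13.6% lay at least 0.5 below DMSO after UNC6852, 16.3% after UNC1999 and 7.13% after both. The strongest contact by mean asinh score joined the captured start of the gene to chr3:128427845-128432267, 63.1 kb away, with 4.40 after UNC6852, 5.79 after UNC1999 and 2.42 with DMSO. A nearby fragment, chr3:128420275-128425901, holds an end of EEFSEC, which encodes the elongation factor for selenocysteine. Its contact with the neighbouring captured fragment of GATA2, over 68.8 kb, had the other pattern, with 2.44, 1.39 and 6.17. The pair over 777 kb into MGLL, the gene of a lipase that cleaves monoglycerides, scored 0.158 after UNC6852, 0 after UNC1999 and 7.43 with DMSO. Upstream of the gene, which is read towards lower coordinates, 2 pairs at 90.5 kb and 130 kb scored 1.23 and 0 after UNC6852, 1.26 and 0 after UNC1999, and 5.31 and 5.68 with DMSO. The other 2 pairs, at 210 and 298 kb within EEFSEC, were called after UNC1999 alone (5.24 and 5.57), with 0.719 and 1.86 after UNC6852 and 0.829 and 1.82 with DMSO.

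The low values of GATA2 in the treated profiles belong to these few pairs. With fragments within 5000 bp of the ends, UNC1999 lay 0.01 above DMSO, and over the whole gene, with 17 pairs, UNC6852 lay 0.07 and UNC1999 0.30 above it, or at -0.15 and 0.11 with scores brought to the same distribution, where the all-gene medians for whole genes were -0.15 and -0.24. Over the whole gene 5 pairs were called after UNC6852, 9 after UNC1999 and 5 with DMSO, and 0 of the 5 DMSO calls was also called in either treatment, which allows a share of up to 60.0%. The captured fragment inside the gene at chr3:128490016-128490938 met the same EEFSEC fragment with 7.65 after UNC6852, 5.15 after UNC1999 and 2.66 with DMSO. It met a fragment in RUVBL1, the gene of a chromatin-remodelling ATPase, over 404 kb with 5.11, 5.57 and 2.11. Both of these contacts were called in the 2 treated profiles and not with DMSO.

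GATA3 lies at chr10:8045333-8075198 and had 12 pairs at its ends, of which 5 were called after UNC6852, 3 after UNC1999 and 4 with DMSO, each in 1 profile only. The mean asinh score was 1.60, 1.27 and 1.56 (SD over pairs 1.05, 0.98 and 0.77), with differences from DMSO of 0.04 and -0.29. Scores brought to the same distribution turn the first of these to -0.31, beside a shift of the all-gene median to -0.14 from 0.07, and whole-gene counting turns the second to 0.13. Of the 12 pairs, 8 ran to a stretch without protein-coding genes downstream of the gene, 354 to 436 kb away. The fragment chr10:8421548-8426572 there scored 9.71 with the upstream captured fragment of GATA3 after UNC6852, 0.717 after UNC1999 and 2.21 with DMSO. The next fragment, chr10:8426573-8432996, was met from both ends of the gene. It scored 6.56, 1.47 and 2.20 with the upstream end, and 1.35, 3.33 and 5.09 with the downstream end, in the order UNC6852, UNC1999 and DMSO. The pattern over the profiles thus differed between the ends of the same gene for the same partner. The fragment at 365 kb from the downstream end was highest after UNC1999, with 7.14, against 1.24 after UNC6852 and 3.36 with DMSO. At 1213 and 1241 kb, 2 further pairs were listed at 0 in both treated profiles and had 5.88 and 5.62 with DMSO. On the other side of the gene, a fragment in TAF3, which encodes a subunit of the general transcription factor TFIID, scored 5.09 after UNC6852, 1.67 after UNC1999 and 1.52 with DMSO.

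Over the whole gene, GATA3 had 66 pairs, of which 33 were called after UNC6852, 24 after UNC1999 and 19 with DMSO. Against the 46.1%, 42.3% and 42.4% of all cis pairs, the UNC6852 share was somewhat above and the UNC1999 and DMSO shares were below. The mean asinh score of GATA3 lay 0.32 above DMSO after UNC6852 and 0.13 above it after UNC1999. As 58 of the 66 pairs were called in 1 profile only, these differences largely restate which profile made the call. Of 8705 genes with at least 3 cis pairs in their bodies, 57.1% lay above DMSO after UNC6852 and 48.7% after UNC1999, and 16.3% and 13.7% did so by at least 0.5. With scores brought to the same distribution the differences became 0.07 and -0.14, beside all-gene medians of -0.15 and -0.24, and the calls 27, 23 and 19. Of the 66 pairs, 51 joined 11 fragments of the gene to chr10:8257540-8519657, which holds non-coding genes such as LINC00708 and no protein-coding gene. Calls in that region numbered 26 after UNC6852, 19 after UNC1999 and 15 with DMSO. Here too the UNC6852 share lay somewhat above that of all cis pairs, and the UNC1999 and DMSO shares lay below. The captured fragment with the first promoter window shown above had the 2 GATA3 contacts called in all 3 profiles. They were at 426 kb, with 6.50, 7.21 and 5.03, and at 432 kb, with 6.87, 5.37 and 5.09, in the order UNC6852, UNC1999 and DMSO. Contacts of 4 captured fragments met at chr10:8443667-8448941, 382 to 393 kb away. They scored 6.72, 7.56, 9.61 and 6.12 after UNC6852, 4.0, 4.58, 7.66 and 4.50 after UNC1999, and 2.03, 6.07, 2.58 and 4.70 with DMSO. Farther out, 8 pairs over 1149 to 1253 kb had 4 calls after UNC6852, 2 after UNC1999 and 3 with DMSO, and 1 of them was called in 2 profiles, with 7.69, 0 and 9.82.

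**Figure D2:**
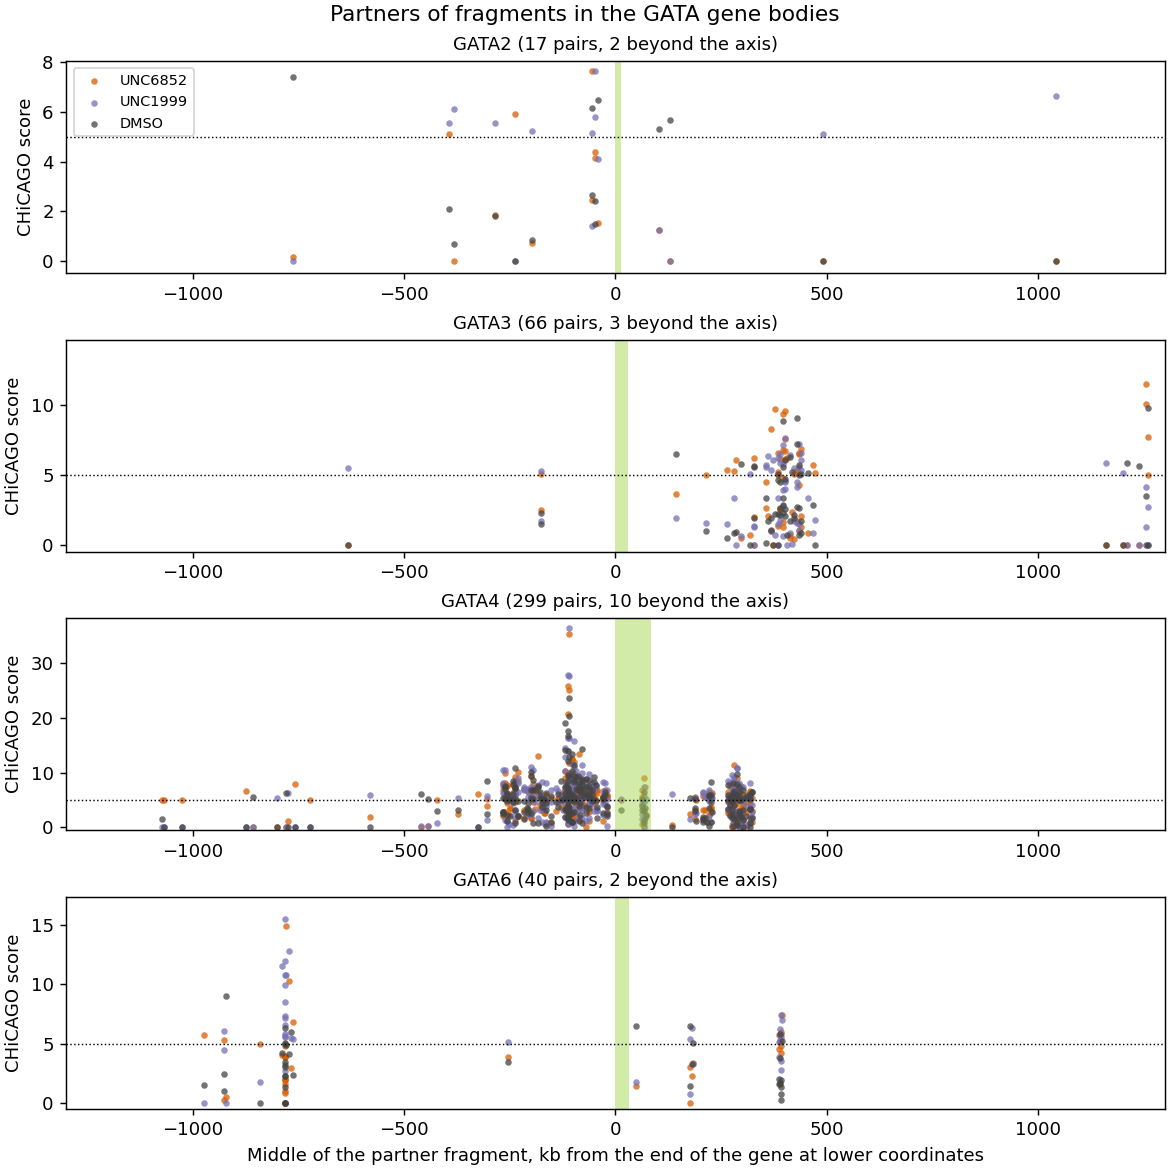
CHiCAGO score (vertical axis) of every cis pair of fragments in GATA2, GATA3, GATA4 and GATA6 against the distance in kb from the gene's end at lower coordinates to the middle of the partner (horizontal axis), for UNC6852, UNC1999 and DMSO. The gene is the green band and the dotted line is the score of 5; GATA4 contacts reach 35.3, 36.3 and 23.5 next to BLK, and GATA6 contacts with GREB1L stand about 0.8 Mb below the gene.

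GATA4 lies at chr8:11676935-11760002 and held 21 of the 43 pairs at gene ends. Of these, 9 were called after UNC6852, 6 after UNC1999 and 10 with DMSO, and the 4 pairs called in 2 profiles were all among them. The mean asinh score was 1.72, 1.51 and 1.91 (SD over pairs 1.05, 0.94 and 0.88), with differences from DMSO of -0.19 and -0.40. Over the whole gene these differences were 0.04 and 0.03, or -0.15 each with scores brought to the same distribution, which gave all-gene medians of -0.15 and -0.24. With the gene end at the bait only, the UNC6852 difference was 0.01 and the UNC1999 difference -0.38.

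The fragment chr8:11758128-11763241 at the higher end of GATA4 was met by 6 captured fragments on both sides of the gene, 106 to 197 kb away. The captured fragment at an end of BLK, which encodes a Src-family kinase of B cells, scored 9.84 with it after UNC6852, 6.01 after UNC1999 and 4.88 with DMSO. A captured fragment at 171 kb, between BLK and GATA4, had the other order, with 3.42, 6.62 and 8.08. On the far side, a captured fragment in CTSB, the gene of the lysosomal protease cathepsin B, scored 5.55, 2.37 and 5.23. The other 3 on that side scored 3.75, 0 and 3.89 after UNC6852, 6.14, 3.70 and 2.37 after UNC1999, and 8.31, 8.11 and 6.31 with DMSO. In 5 of the 6 contacts DMSO was at or above 5, against 2 after UNC6852 and 3 after UNC1999.

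At the lower end of GATA4, 4 captured fragments gave 15 pairs. The one at chr8:11676078-11676583 met 3 fragments inside the gene, 64.2 to 70.9 kb away, with 6.75, 5.74 and 7.30 after UNC6852, 1.56, 4.69 and 1.64 after UNC1999, and 3.84, 1.38 and 3.49 with DMSO. These 3 contacts were called after UNC6852 alone. Adjoining partners could differ: chr8:11967011-11972324 scored 0.531 after UNC6852, 0.148 after UNC1999 and 7.41 with DMSO, while chr8:11972325-11977390, which holds an end of the beta-defensin gene DEFB136, scored 6.25, 2.75 and 1.97 with another captured fragment of the same end. Towards FAM167A, the pair at 268 kb scored 2.16, 8.11 and 2.42, and the pair at 238 kb scored 1.12, 3.17 and 7.16. The 3 pairs beyond 2 Mb, at 9919, 36400 and 129873 kb, were called in 1 profile each and listed at 0 in the other two. Over the GATA2, GATA3 and GATA4 ends, 13 combinations of contacts of a gene had partners at most 10 kb apart and gene fragments at most 35 kb apart, and the sign of the difference from DMSO was shared in 7 of them for UNC6852 and in 6 for UNC1999.

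Inside GATA4 the contacts were more numerous, and those of some captured fragments were more alike across profiles. The whole gene had 299 pairs, with 168 called after UNC6852, 171 after UNC1999 and 159 with DMSO, and 65 of them called in all 3. Of these 65, the baits chr8:11743931-11744983 and chr8:11746436-11747930 gave 22 each, and chr8:11737003-11737956 gave 10. The bait chr8:11720773-11721128, with 20 pairs, gave 0. On the lower side, 191 pairs joined GATA4 to chr8:11214639-11660544, the neighbourhood of BLK and FAM167A, with 121, 119 and 114 calls and 55 in all 3 profiles. On the higher side, 77 pairs joined it to chr8:11808092-12002533, where CTSB and several beta-defensin genes lie, with 33, 42 and 37 calls and 10 in all 3. The strongest contact by mean asinh score joined chr8:11746436-11747930, near the higher end of the gene, to the BLK-end fragment chr8:11565570-11570571 over 179 kb, with 35.3 after UNC6852, 36.3 after UNC1999 and 20.3 with DMSO. A captured fragment close by, chr8:11743931-11744983, met the same partner with 25.1, 27.5 and 23.5. Read from a captured fragment next to that partner, the contacts with these GATA4 fragments scored 25.8, 27.8 and 17.6, and 20.6, 16.3 and 16.7. All of these stood above 5 in all 3 profiles. The 2 GATA4 fragments were baits of 52 and 50 pairs and met chr8:11961270-11967010 on the other side of the gene with 6.71 and 9.0 after UNC6852, 10.8 and 10.8 after UNC1999, and 9.80 and 7.98 with DMSO. Ends of BLK were the partner in 25 of the gene's pairs that were called in at least 2 profiles or had a mean score of at least 5 over at least 100 kb. Ends of FAM167A were so in 6 pairs, and DEFB134 and DEFB135 in 1 each.

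GATA5 lies at chr20:62463497-62475995 and had 1 cis pair in all. A captured fragment at an end of NTSR1, which encodes a neurotensin receptor, met the lower end of GATA5 over 245 kb with a score of 1.23 after UNC6852, 0 after UNC1999 and 7.70 with DMSO. A single pair that was called with DMSO alone had to lie lower in the treated profiles.

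GATA6 lies at chr18:22169589-22202528, and its ends entered as other ends of 2 pairs, both called after UNC1999 alone. The start of the gene, with the promoter window shown above, met a captured fragment in GREB1L, a gene needed for kidney development, over 781 kb with 3.91 after UNC6852, 6.61 after UNC1999 and 1.34 with DMSO. The end of the gene met a captured fragment 357 kb beyond it with 1.57, 5.80 and 3.79.

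Over the whole gene GATA6 had 40 pairs, of which 12 were called after UNC6852, 28 after UNC1999 and 10 with DMSO. Against the 46.1%, 42.3% and 42.4% of all cis pairs, the UNC1999 share was larger and the UNC6852 and DMSO shares smaller. UNC1999 scored above DMSO in 32 of the 40 pairs and below it in 8, with a mean asinh score of 1.69 after UNC6852, 2.27 after UNC1999 and 1.59 with DMSO (SD over pairs 0.92, 0.87 and 0.84), differences of 0.10 and 0.68. Of the 40 pairs, 32 were called in 1 profile only, so these signs and differences largely restate which profile made the call. Gene bodies at least 0.5 above DMSO after UNC1999 made up 13.7%, as given for GATA3. Among the 2273 with at least 20 pairs, 4.66% had at least 2 times as many UNC1999 calls as DMSO calls, and 5.85% as many UNC6852 calls. With scores brought to the same distribution the differences were -0.16 and 0.46, beside all-gene medians of -0.15 and -0.24.

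Of the 40 pairs, 18 joined GATA6 to chr18:21324761-21410605 within GREB1L, and calls there numbered 4 after UNC6852, 16 after UNC1999 and 3 with DMSO. The captured fragment chr18:21386743-21387544 in GREB1L met a row of fragments across GATA6. With chr18:22188319-22193367 it scored 3.84 after UNC6852, 15.5 after UNC1999 and 3.02 with DMSO, and with chr18:22178025-22183247 it scored 3.96, 12.0 and 4.98. Over all of its 15 cis pairs, wherever they lay, 1 was called after UNC6852, 14 after UNC1999 and 2 with DMSO. Its 3 pairs more than 50 kb from GATA6 were called 0, 3 and 0 times in that order, and its 6 trans pairs 3, 0 and 3 times. The neighbouring captured fragment chr18:21385998-21386526 had 18 cis pairs with 3, 12 and 3 calls, and its 6 pairs more than 50 kb from GATA6 had 0, 3 and 3. The next, chr18:21387598-21387790, had 8 cis pairs with 1, 4 and 4 calls, and its 3 away from GATA6 had 1, 0 and 3. What part the captured fragments themselves had in the GATA6 result was not tested.

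Read from the 2 captured fragments of GATA6, the pattern was another. The first, chr18:22171070-22172711, had 3 cis pairs, at 46.8, 173 and 49128 kb. They scored 1.43, 0 and 0 after UNC6852, 1.73, 0.708 and 16.6 after UNC1999, and 6.49, 6.53 and 0 with DMSO. The captured fragment chr18:22176269-22178024 inside the gene had 12 cis pairs with 6 calls after UNC6852, 7 after UNC1999 and 5 with DMSO. It met chr18:21387791-21393010 in GREB1L, next to the captured fragments there, with 14.9, 10.8 and 4.90, and chr18:21393011-21398333 with 10.3, 12.8 and 4.09. Another fragment of GREB1L, chr18:21378613-21383775, scored 4.03, 11.6 and 4.17. Other contacts of the same fragment with GREB1L were highest with DMSO: chr18:21398334-21403740 scored 2.95, 5.46 and 6.01, and chr18:21244120-21249187 scored 0.467, 0 and 8.99. The remaining contacts in the GREB1L region were at 770, 850 and 982 kb. They scored 6.84, 5.01 and 5.71 after UNC6852, 5.43, 1.74 and 0 after UNC1999, and 2.31, 0 and 1.54 with DMSO. Without captured fragments more than 500 kb from the gene, GATA6 had 26 pairs, with 11 calls after UNC6852, 16 after UNC1999 and 8 with DMSO, and a UNC1999 difference of 0.36 in place of 0.68. Without the GREB1L fragment at chr18:21386743-21387544 alone, the calls were 12, 22 and 9 of 34 pairs and the difference 0.62.

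**Figure D3:**
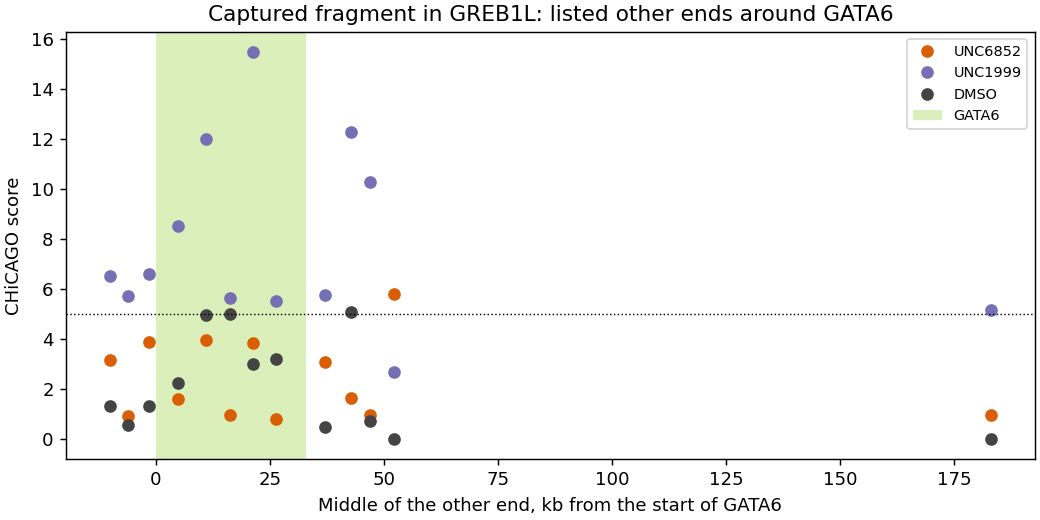
CHiCAGO score (vertical axis) between the captured fragment in GREB1L and its other ends around GATA6, by distance in kb of the other end's middle from the start of GATA6 (horizontal axis), for UNC6852, UNC1999 and DMSO; the green band is GATA6 and the dotted line is the score of 5. The captured fragment drawn is chr18:21386743-21387544, chosen because it had the most UNC1999 calls of the captured fragments that met GATA6. UNC1999 is the highest of the 3 profiles in all the pairs drawn but the one at 52.2 kb, with a top score of 15.5 inside the gene. Most of the pairs drawn were called after UNC1999 alone, and in those UNC1999 had to be highest.

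On its other side GATA6 met chr18:22556581-22567175, beyond the gene, in 10 pairs over 357 to 388 kb, with 6 called after UNC6852, 7 after UNC1999 and 2 with DMSO. The mean asinh score of these pairs was 2.27, 2.33 and 1.43, and UNC6852 exceeded DMSO in 8 of them and UNC1999 in 10. As 7 of the 10 were called in 1 profile only, these signs partly restate which profile made the call. Here 3 captured fragments met the gene from outside, and the captured fragment chr18:22176269-22178024 inside GATA6 met the region with 7.42, 6.99 and 5.26 over 388 kb. That contact, and the one of chr18:22557960-22558689 with chr18:22183248-22188318 (5.14, 6.20 and 5.82), were the 2 GATA6 contacts called in all 3 profiles. The region has no annotated end of a protein-coding gene.

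The question of how many DMSO contacts were also called after treatment gives different answers for gene ends and whole genes. At the gene ends, 1 of 19 DMSO calls was also called after UNC6852 (5.26%, exact 95% interval 0.133 to 26.0) and 2 of 19 after UNC1999 (10.5%, 1.30 to 33.1), and all of these were in GATA4. The remaining genes kept 0 of 9 in either treatment, which allows a share of up to 33.3%. Over all cis pairs the shares were 31.4% and 29.3%, and over cis pairs of 50 to 500 kb with a highest score under 11, 29.7% and 27.3%. The GATA shares also include DMSO calls at 777, 859, 1213, 1241 and 36400 kb, none called after treatment, which that class leaves out. Its limit of 11 lies just above the highest score at the GATA ends, 10.7. With scores brought to the same distribution, the GATA ends kept 10% and 15%. Between the treatments, 1 of 14 UNC6852 calls was also called after UNC1999 (7.14%, 0.181 to 33.9), so few calls were shared between any 2 of the profiles. All these intervals cover counting error only, and pairs that share a fragment are not independent.

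Over whole genes, 94 of 194 DMSO calls were also called after UNC6852 (48.5%, 41.2 to 55.7) and 88 after UNC1999 (45.4%, 38.2 to 52.6). GATA4 made up most of this, with 54.7% and 51.6% of its 159 DMSO calls. Most of its pairs called in all 3 profiles came from a few captured fragments, as given above. Without GATA4 the shares were 20% (8.44 to 36.9) and 17.1% (6.56 to 33.6) of 35, which overlap the background. The T-box genes, another family of developmental transcription factors and 17 in number, kept 30.0% and 26.7% of 60 DMSO calls at their ends and 25.2% and 18.3% of 115 over whole genes. At T-box ends 12 of 152 pairs were called in all 3 profiles, against 0 of 43 at GATA ends. T-box ends averaged 0.16 above DMSO after UNC6852, where GATA ends lay 0.27 below it. Of the 17 T-box genes 12 had pairs at their ends, and EOMES held 69 of the 152, at 0.31 above DMSO. Among the 9 with at least 3 pairs, 6 lay above DMSO after UNC6852 and 3 below. Over whole genes the T-box pairs lay 0.18 and the GATA pairs 0.09 above DMSO after UNC6852.

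**Figure D4:**
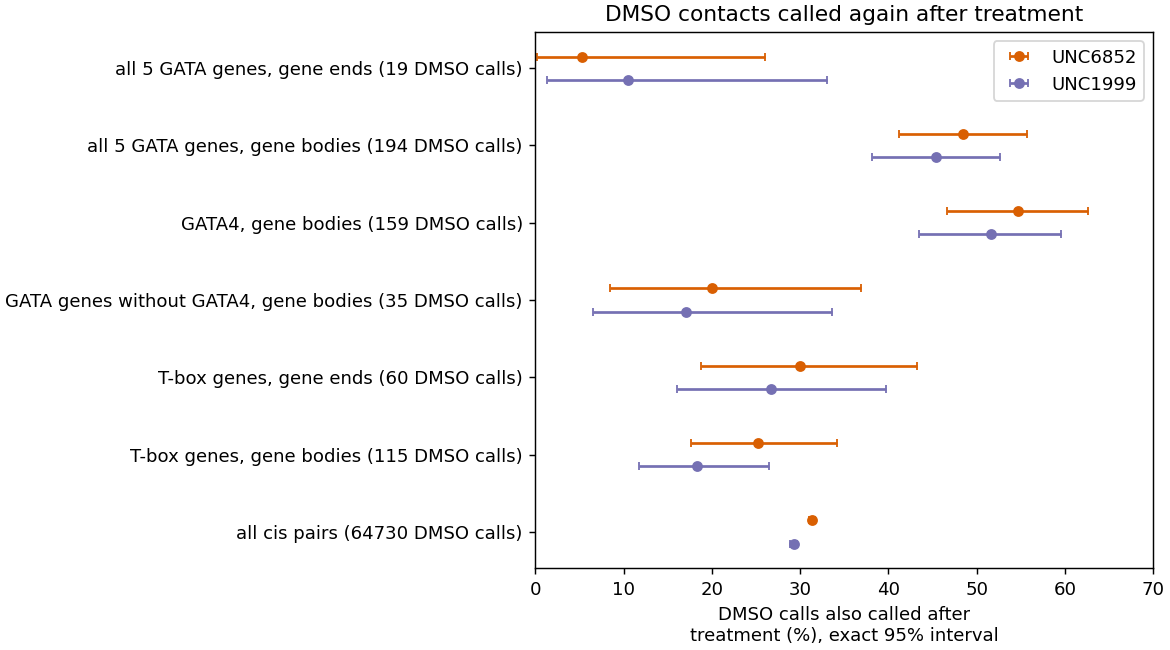
Share of DMSO calls that were also called after UNC6852 or UNC1999 (horizontal axis, %) with exact 95% binomial intervals as bars, for the GATA genes, the T-box genes and all cis pairs. GATA gene ends lie at 5.26 and 10.5%, and GATA4 as a whole gene at 54.7 and 51.6%.

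Genes that act with GATA factors in blood, heart, endoderm and trophoblast were taken as a list of 28, of which 15 had at least 3 cis pairs at their ends. After UNC6852, 10 of the 15 lay above DMSO and 5 below, with a median difference of 0.03, against 56.4% of all 4979 genes above DMSO and a median of 0.07. After UNC1999, 8 lay above and 7 below, with a median of 0.02, against 49.1% and -0.01. TBX20, a T-box factor of the heart, was lowest in both contrasts, with 7 pairs and a mean asinh score of 1.06 after UNC6852, 0.96 after UNC1999 and 2.12 with DMSO. HAND2, a helix-loop-helix factor of the heart and limb, came next, with 2.10, 2.07 and 2.57 over 3 pairs. The highest after UNC6852 were MEF2C, a muscle and heart factor, with 2.68 against 2.18 with DMSO over 24 pairs, and FOXA1, a pioneer factor of endoderm, with 2.48 against 2.13 over 62. After UNC1999 the highest were LMO2, a partner of GATA factors in blood, with 2.32 against 1.47 over 3 pairs, and MEF2C and FOXA2, 0.21 above DMSO each. Past 0.5 in size lay 1 gene above and 1 below after UNC6852, where 18.3% and 13.6% of all genes did, and 1 above and 2 below after UNC1999, where 15.7% and 16.3% did.

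The genes most like each member in their 3 mean asinh scores, among 1565 with at least 10 pairs, were C11orf96, CYTH3 and IGFBP1 for GATA2, at Euclidean distances of 0.073 to 0.13. They were P4HA3, COQ8A and VAX1 for GATA3 (0.028 to 0.094), and TGFBI, RGS10 and VWDE for GATA4 (0.026 to 0.089). GATA5, with 1 pair, had no gene nearer than 1.1 (OAS3, then HTR1B and LOC124902392), and GATA6, with 2, was nearest to GCNT2, ZCCHC18 and LOC124909474 (0.19 to 0.25). These distances rest on 3 pooled values a gene.

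Between members, 1 pair was listed, and it lies across chromosomes: the captured fragment chr8:11681037-11681203 in GATA4 and chr18:22193368-22198409 in GATA6 scored 5.75 after UNC6852 and were listed at 0 after UNC1999 and with DMSO. At the gene ends 116 trans pairs were listed, and none was called in more than 1 profile, which allows a share of up to 2.59%; over all trans pairs that share was 0.334%, so the count does not set the GATA genes apart.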

How the data were processed

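Poised-enhancer capture Hi-C of HNES1 cells was used for UNC6852, UNC1999 and DMSO, 15 libraries each. The deposited values are CHiCAGO scores, 1 column per group pooled over its libraries, per the file headers and the labels. The genome build is GRCh38, per the submitters' processing notes. Which aligner was used, and how the scoring was set, is not given in the sources used here, and read depth is unknown.

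Genes came from RefSeq GRCh38.p14 (20037 protein-coding genes placed). A cis pair was assigned to a gene when a fragment reached within 1000 bp of either gene end, and was counted once. Scores are unbounded above and often 0, so they were averaged as asinh(score), compound minus DMSO; a score of 5 is 2.31 on this scale. Genes needed at least 3 cis pairs to be measured. Shares of calls have exact Clopper-Pearson 95% intervals, and a share of 0 has a limit of 3 counts; both cover counting error only. With 1 pooled column a group no test was run. Averaging by gene was tried on simulated data with planted differences. The simulated noise was much smaller than the spread over real pairs, and no filter on calls was applied. It therefore cannot show how reliable the reported differences are.

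The members and lists were chosen with earlier results of these data known. The contacts named by rule were, for each gene, the 4 with the highest mean asinh score and, for each compound, the 2 lowest and 2 highest differences among pairs scoring at least 7. Partner genes named by rule had an end at a fragment called in at least 2 profiles, or at least 100 kb away with a mean score of at least 5. From the co-regulator list, the 2 lowest and 2 highest genes per compound were named, and for likeness the 3 nearest genes. Other contacts and genes were named after their values were seen. Alternatives were other thresholds, windows, scalings, distances and averaging. Python 3.11.15 was used with pandas 2.3.3, numpy 2.4.6, scipy 1.17.1 and matplotlib 3.10.9.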

Additional observations from a re-analysis of the deposited data

Results flagged for a closer look

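Pairs across chromosomes lay outside the comparisons above and were called more often after treatment, as in the whole series. At the GATA gene ends 39 of the 116 trans pairs were called after UNC6852 and 45 after UNC1999, against 32 with DMSO. That is 1.22 and 1.41 times the DMSO count, where all 281836 trans pairs of the series gave 1.15 and 1.21 times. Of those, 96770 were called after UNC6852, 101879 after UNC1999 and 84499 with DMSO, shares close to those at the GATA ends. The counts thus do not set the GATA genes apart.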

How the results depend on the processing

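No paired analysis was possible because each group is 1 column pooled over its libraries. Values follow the order UNC6852, UNC1999 and, where given, DMSO. Calls at the gene ends (14, 14 and 19) became 4, 2 and 7 at a threshold of 7, and 1, 0 and 0 at 10. They became 5, 8 and 11 with a window of 0 bp, 45, 58 and 45 with 5000 bp, and 218, 232 and 194 over whole genes. With the gene at the other end they were 2, 5 and 7. With the gene at the bait UNC1999 had 9 and DMSO 12. Without GATA4, an alternative chosen after seeing the data, they were 5, 8 and 9. The shares of DMSO calls kept (5.26% and 10.5%) were 0 and 0 at a threshold of 7, with the gene at the bait and without GATA4, and 48.5% and 45.4% over whole genes; at a threshold of 10 DMSO had no call, so no share could be formed.

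The mean difference over all pairs (-0.27 and -0.40) reversed to 0.14 and 0.10 with a window of 5000 bp and to 0.09 and 0.11 over whole genes. It was -0.54 and -0.67 with quantile-normalized scores, which moved the all-gene medians to -0.14 and -0.23 from 0.07 and -0.01. For UNC6852 it was -0.59 with a window of 0 bp, -0.55 with means over baits and -0.81 with the gene at the other end, and for UNC1999 -0.10 over the 3 pairs whose mean score reached 5. By gene, GATA2 reversed to 0.01 (UNC1999, 5000 bp) and to 0.07 and 0.30 over the whole gene. GATA3 reversed for UNC6852 to -0.37 (0 bp), -0.31 (quantile) and -0.06 (means over baits), and for UNC1999 to 0.49 (0 bp) and 0.13 (whole gene). GATA4 reversed for UNC6852 to 0.02 (5000 bp), 0.04 (whole gene) and 0.01 (gene at the bait), and for UNC1999 to 0.03 (whole gene). GATA5 reversed for UNC6852 to 0.08 (5000 bp), and GATA6 to -0.37 (quantile). GATA6 for UNC1999 rests on 2 pairs, both called after UNC1999 alone, so its sign was fixed by the choice of pairs in most settings; over the whole gene it was 0.68, and 0.36 without captured fragments more than 500 kb away. A wider window or a higher threshold changes which pairs are counted; other causes were not tested. Of the recomputed values for the gene set, 4 changed sign, 37 moved by over 1.5 times (counts), out of their exact interval (shares) or by more than the standard error over the pairs (differences), and 43 did none of these. For single genes, 14 changed sign, 14 moved and 78 did neither. These tallies include a setting that kept only cis pairs of at least 20 kb. It left all 43 pairs in place, so its values could not change and count as unmoved.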

Other observations

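The scores set 1 pooled profile against another, so how far they would vary between biological replicates or batches is not known from the values used here. A call at 5 is a cut through a continuous score. GATA5 and GATA6 are seen at their ends through 1 and 2 pairs. Pairs of a gene share fragments and often have adjoining partners, so counts of pairs are not counts of separate contacts. The annotation gives gene ends; which end is the transcription start was taken from the promoter windows for GATA2, GATA3 and GATA6.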
